A study of Mus musculus with 12 samples.

Results

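The genes described here are 10 core components and outputs of the circadian clock, Arntl (also named Bmal1), Clock, Npas2, Per1, Per2, Per3, Nr1d1, Nr1d2, Dbp and Ciart, followed by name through whole-heart total RNA of Rexo2 knockout-labelled and control mice. They were taken as a fixed list of names, and each matched 1 of the 54751 features in the deposited count table. All 10 passed the filter on low values, a mean of at least 10 normalised counts over the 6 libraries. Both groups were C57BL/6N mice aged 52 weeks, kept in 12-h light and 12-h dark with lights on at 7 am. The 3 KO libraries, numbered 492, 499 and 501, came from mice with loxP-flanked Rexo2 alleles and 1 allele named Ckmm. The 3 WT libraries, numbered 490, 498 and 502, came from mice with loxP-flanked Rexo2 alleles and no Ckmm allele listed, so both groups carried the floxed gene. Ckmm stands for muscle creatine kinase, and Cre lines built on its promoter recombine in cardiomyocytes and skeletal muscle fibres. Any effect of the Ckmm allele itself therefore cannot be told apart from loss of Rexo2. The sources used here state neither the clock time at which hearts were taken nor whether each library came from its own animal. The p-values therefore measure only spread between these libraries, which may be technical. In limma, part of that spread is shared over features, so its SEs and intervals do not rest on a gene's own values alone.

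The circadian clock is a feedback loop of transcription that runs in nearly every cell, cardiomyocytes included. ARNTL pairs with CLOCK or its relative NPAS2 and binds E-box elements to switch on the Per, Cry, Nr1d and Dbp genes. PER and CRY proteins then inhibit ARNTL and CLOCK, while the nuclear receptors NR1D1 and NR1D2 repress Arntl and Npas2. In mouse heart Arntl and Npas2 RNA therefore run opposite to Nr1d1, Dbp and Per3 RNA over the day, Clock RNA cycles weakly, and the loop times genes of metabolism, ion channels and growth.

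Promoter windows of these genes were searched for short DNA words known to be bound by factors of the loop. Windows from 250 bases before to 50 bases after an annotated start were found in RefSeq (GRCm38.p6) for 9 of the 10 genes, 13 windows in all. Both strands were searched for the E-box CACGTG, the E-box variant CACGTT, the D-box sequences TTATGTAA and TTACGTAA, which are bound by DBP and its relatives, and AGGTCA, the core of the element bound by ROR and NR1D receptors. Of the 13 windows, 7 held at least 1 of these 5 words, and no matches shared bases. The share of all windows with at least 1 of the 5 was not computed, so whether 7 of 13 is unusual cannot be said. The 5 windows below were chosen because they show each kind of element that was found, on the gene's own strand with matches in capitals.
Ciart, chr3:95882179-95882478, minus strand: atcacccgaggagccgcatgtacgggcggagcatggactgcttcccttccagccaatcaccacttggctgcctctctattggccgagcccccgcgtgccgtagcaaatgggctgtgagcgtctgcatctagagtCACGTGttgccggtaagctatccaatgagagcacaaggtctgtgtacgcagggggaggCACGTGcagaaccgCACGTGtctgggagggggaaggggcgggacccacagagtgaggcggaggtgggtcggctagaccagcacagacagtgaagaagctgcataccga
Per1, window 1 of 2, chr11:69098699-69098998, plus strand: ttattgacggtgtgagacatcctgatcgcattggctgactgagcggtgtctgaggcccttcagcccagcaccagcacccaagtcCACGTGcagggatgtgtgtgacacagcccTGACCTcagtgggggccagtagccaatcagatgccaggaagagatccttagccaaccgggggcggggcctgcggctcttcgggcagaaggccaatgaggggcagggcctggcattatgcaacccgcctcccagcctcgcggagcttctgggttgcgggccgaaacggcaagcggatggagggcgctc
Nr1d1, chr11:98775328-98775627, minus strand: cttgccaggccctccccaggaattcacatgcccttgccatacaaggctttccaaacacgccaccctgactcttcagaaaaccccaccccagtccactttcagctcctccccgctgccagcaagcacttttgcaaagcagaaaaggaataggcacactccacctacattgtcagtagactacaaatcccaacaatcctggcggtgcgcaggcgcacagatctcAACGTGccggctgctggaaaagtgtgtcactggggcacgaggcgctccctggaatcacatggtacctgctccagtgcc
Per3, chr4:151044616-151044915, minus strand: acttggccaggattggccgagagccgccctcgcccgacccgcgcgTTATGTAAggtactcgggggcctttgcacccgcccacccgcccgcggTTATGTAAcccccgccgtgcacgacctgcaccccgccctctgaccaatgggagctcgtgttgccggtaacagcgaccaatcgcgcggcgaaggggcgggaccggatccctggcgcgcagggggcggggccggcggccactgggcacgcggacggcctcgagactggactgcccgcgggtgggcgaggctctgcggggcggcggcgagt
Arntl, window 2 of 2, chr7:113207261-113207560, plus strand: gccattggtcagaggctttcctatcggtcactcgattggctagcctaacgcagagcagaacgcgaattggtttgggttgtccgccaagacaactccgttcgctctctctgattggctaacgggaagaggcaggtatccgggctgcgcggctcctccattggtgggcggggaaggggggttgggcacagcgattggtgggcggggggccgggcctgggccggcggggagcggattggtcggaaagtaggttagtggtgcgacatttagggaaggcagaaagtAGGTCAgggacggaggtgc
The Ciart window held 3 copies of CACGTG, and the Per1 window held 1 copy plus 1 AGGTCA on the opposite strand. The Nr1d1 window held 1 CACGTT on the opposite strand, read there as AACGTG. Per3 held 2 copies of TTATGTAA, and Arntl held 1 AGGTCA close to the end of the window. Single copies of AGGTCA also stood in the Nr1d2 window and in 1 of the 3 Clock windows, and the Npas2 and Dbp windows held none of the 5 words. Over all 32851 windows in the same table, 7.15% held CACGTG, 4.68% CACGTT, 0.938% TTATGTAA, 0.119% TTACGTAA and 16.3% AGGTCA. A match is a string of letters in this window and not a measured binding site.

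Depth ranged from 41979163 to 49722049 reads in KO libraries and from 43561069 to 50764023 in WT libraries. Of these reads, 71.5% to 71.9% in KO and 69.4% to 70.0% in WT libraries lay on features of mitochondrial DNA (mtDNA), without overlap. Only the remaining reads cover nuclear genes, the clock genes included. On the first principal component of all tested features, with 26.4% of the variance, WT 490 had a value of -30.1 and stood apart, the other 5 ranging between -5.63 and 16.7. On the second component, with 22.5%, KO 492 lay at -25.5 and KO 501 at 25.9, and the other 4 libraries between -2.47 and 2.64. Rexo2 held 274, 288 and 314 normalised counts in KO 492, 499 and 501 and 329.7, 368 and 293 in WT 490, 498 and 502. The groups overlapped, and this does not check the genotype, since counts are per gene and the deleted exons are not stated. All 6 listed cardiomyocyte markers were present, with summed levels of 247166 to 274638 normalised counts in KO and 247476 to 270222 in WT libraries. Of 3 atrial markers, Nppa held 1681 to 2467 counts in KO and 1934 to 2746 in WT libraries. Myl7 held 0 to 3.38 counts in KO and 0 in WT libraries, and Sln 0 in KO and 0 to 0.894 in WT libraries. How much atrial tissue the libraries hold was not tested. Of 5 fat markers only Cidea reached a mean of 10, and each of Adipoq, Plin1, Cidec and Ucp1 held 0 to 4.51 counts in KO and 0 to 1.02 in WT libraries. The skeletal muscle marker list summed to 4445 to 5764 counts in KO and 2196 to 4199 in WT libraries without overlap. Nearly all of that sum lay on Acta1, an actin gene that heart muscle also expresses, and the other 4 genes of that list were below a mean of 10. Its part in the clock comparisons was not tested.

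None of the 10 clock genes was called different between KO and WT hearts. At the low shares called over all features, this does not set the 10 genes apart. limma called 0 of the 10 at an adjusted p under 0.05, against 0.0219% of the 18250 features tested. At an unadjusted p under 0.05 limma had 0 of the 10, against 3.7% of all features. edgeR on the recovered reads also called 0 of the 10, against 0.0274% of all features, and had 0 at an unadjusted p under 0.05, against 3.78%. DESeq2 on those reads called 0 of the 7 genes it gave an adjusted p, against 0.529% of all features with one, and had 0 of 10 unadjusted, against 1.78%. The authors' deposited table called 0 of the 8 genes with an adjusted p, against 0.437% of all features with one, and had 0 of 10 at an unadjusted p under 0.05, against 0.999%. Without WT 490, limma called 0 of the 10, against 0.0438% of all features, and had 0 at an unadjusted p under 0.05, against 4.29%. The KO and WT values overlapped in all 10 genes. Over all features 9.51% showed no overlap, a share at which a list of 10 can easily hold none. The median log2 fold change of the 10 was -0.022, with 4 above 0, beside 0.00056 over all features tested. In whole-tissue RNA, fewer cells of a type and less RNA per cell cannot be told apart.

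**Figure D1:**
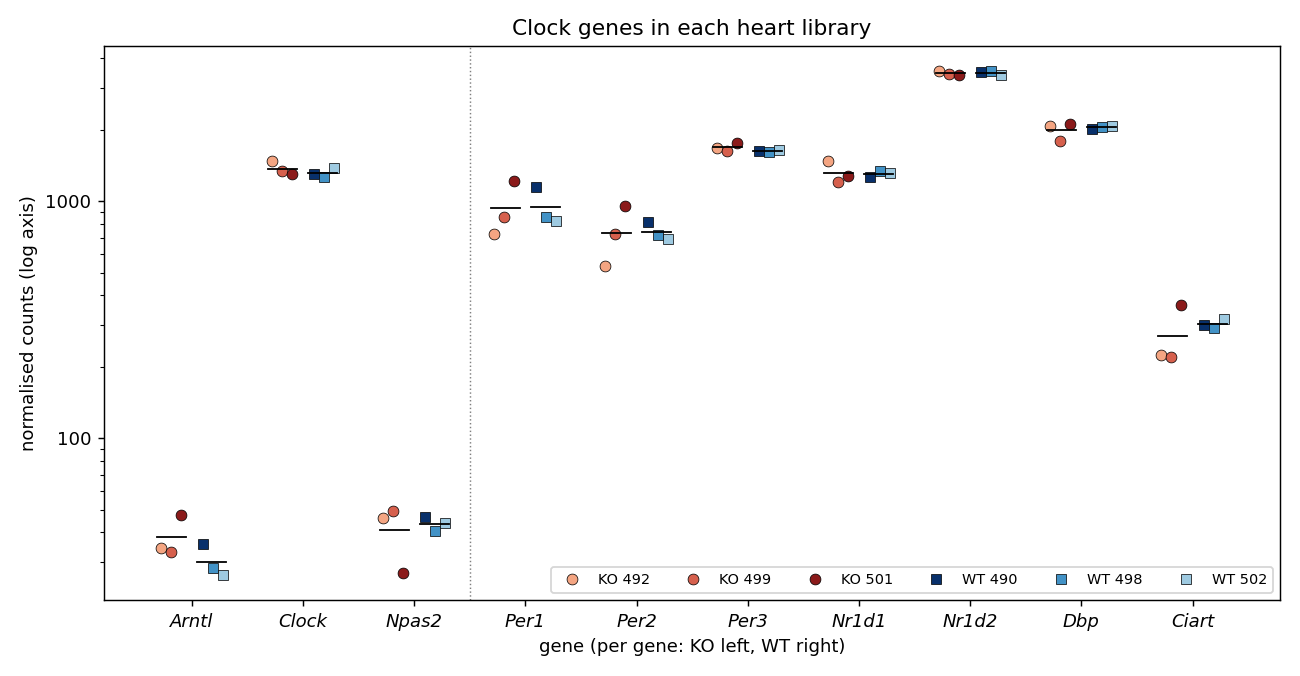
Normalised counts (log axis) of each clock gene in the 3 KO libraries (circles, left) and the 3 WT libraries (squares, right), with a bar at each group's mean and a dotted line between the activators and the other genes. KO and WT points overlap in every gene, Nr1d2 and Per3 points lie close together, and Per1, Per2 and Ciart points spread widely.

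Arntl encodes the obligate partner of CLOCK and NPAS2 and was counted from few reads. Arntl (ENSMUSG00000055116.8, chromosome 7, 113178471 to 113314126) held 34.3, 33.1 and 47.4 normalised counts in KO 492, 499 and 501, and 35.7, 28.2 and 26.5 in WT 490, 498 and 502. KO 501 was the highest library and WT 502 the lowest, and KO 492 and 499 lay between WT 498 and WT 490. These values rest on 32, 35 and 42 reads in the KO libraries and 40, 30 and 26 in the WT libraries. KO over WT, the log2 fold change was 0.33, its SE 0.24 and its 95% interval from -0.19 to 0.84 (limma adjusted p = 1.00). It was 0.17 without KO 501 and 0.45 without WT 490. The interval therefore spans from slightly lower to clearly higher Arntl in KO hearts. Few reads, 3 libraries per group and adjustment over all features each limit what could be called.

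Npas2, the relative of Clock that also pairs with ARNTL, was likewise counted from few reads. Npas2 (ENSMUSG00000026077.15, chromosome 1, 39193702 to 39363240) held 46.2, 49.2 and 27.1 normalised counts in KO 492, 499 and 501, from 43, 52 and 24 reads, and 46.5, 40.4 and 43.8 in WT 490, 498 and 502, from 52, 43 and 43 reads. KO 501, the library highest in Arntl, was the lowest in Npas2, and the other 5 libraries lay close together. The log2 fold change was -0.13 with a 95% interval from -0.66 to 0.39 (limma adjusted p = 1.00), and it turned to 0.13 without KO 501.

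Clock, which encodes the DNA-binding partner of ARNTL, was counted far more deeply than Arntl or Npas2 and varied little. Clock (ENSMUSG00000029238.11, chromosome 5, 76209868 to 76305603) held 1473, 1339.7 and 1297 normalised counts in KO 492, 499 and 501, and 1307, 1267 and 1377 in WT 490, 498 and 502. The highest library was only 1.16 times the lowest. The log2 fold change was 0.055 with a 95% interval from -0.080 to 0.19 (limma adjusted p = 1.00). The annotated Clock gene holds the pseudogene Ube2n-ps1, which had 374 to 443 counts in KO and 357 to 447 in WT libraries and was counted as a feature of its own. Counts here are not divided by transcript length, so the levels of different genes are not ranked against each other.

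The Period genes encode the proteins that, with CRY proteins, inhibit ARNTL and CLOCK. Per1 (ENSMUSG00000020893.17, chromosome 11, 69095108 to 69109965) held 725, 856 and 1218 normalised counts in KO 492, 499 and 501, and 1148, 854 and 828 in WT 490, 498 and 502. Per2 (ENSMUSG00000055866.9, chromosome 1, 91415977 to 91459351) held 535, 725 and 951 in KO 492, 499 and 501, and 814, 720.1 and 694 in WT 490, 498 and 502. Both genes placed the 6 libraries in the same order, from low to high KO 492, WT 502, WT 498, KO 499, WT 490 and KO 501, so that KO libraries stood at both ends. The highest library was 1.68 times the lowest for Per1 and 1.78 times for Per2. The group means were nearly equal, at 933 ± 256 in KO and 943 ± 178 in WT for Per1 and at 737 ± 208 in KO and 743 ± 63.1 in WT for Per2 (SD, n = 3 each). The log2 fold changes were -0.034 for Per1, with a 95% interval from -0.37 to 0.30, and -0.047 for Per2, with an interval from -0.37 to 0.27 (limma adjusted p = 1.00 for both). Without WT 490 they were 0.12 and 0.021, and without KO 492 they were 0.13 and 0.16. The limma SEs were 0.16 for Per1 and 0.15 for Per2, against 0.27 and 0.25 in the authors' deposited results. Sharing spread over features narrows the limma intervals of genes that spread widely, such as these, and widens that of a steady gene such as Nr1d2.

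Per3 did not share that spread. Per3 (ENSMUSG00000028957.12, chromosome 4, 150997018 to 151044707) held 1670.2, 1623 and 1762 normalised counts in KO 492, 499 and 501, and 1631, 1609 and 1651 in WT 490, 498 and 502. The highest library was 1.09 times the lowest, and again KO 501 was the highest. The log2 fold change was 0.047 with a 95% interval from -0.069 to 0.16 (limma adjusted p = 1.00).

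Ciart, also called Chrono, encodes a further repressor of ARNTL and CLOCK and holds the 3 E-boxes printed above. Ciart (ENSMUSG00000038550.10, chromosome 3, 95878500 to 95882257) held 223, 219.7 and 364 normalised counts in KO 492, 499 and 501, and 300.2, 290.5 and 317 in WT 490, 498 and 502. KO 492 and 499 lay below every WT library and KO 501 above every one, so the KO libraries stood on both sides of a narrow WT group. The log2 fold change was -0.21 with a 95% interval from -0.54 to 0.12 (limma adjusted p = 1.00). Without KO 501 it was -0.45, with a limma adjusted p of 0.330, the lowest for any of the 10 genes in any alternative. Ciart lies wholly inside the annotated lncRNA gene C920021L13Rik, which held 21.8 to 29.0 counts in KO and 18.8 to 35.7 in WT libraries. Reads of the overlapping transcripts may not be separated, since strand-specific counting is not stated in the sources used here.

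Nr1d1 and Nr1d2 encode REV-ERB alpha and beta, the receptors that repress Arntl and Npas2. Nr1d2 was the steadiest gene of the 10. Nr1d2 (ENSMUSG00000021775.11, chromosome 14, 18204056 to 18239106) held 3537, 3432 and 3409 normalised counts in KO 492, 499 and 501, and 3511, 3524 and 3413 in WT 490, 498 and 502. The highest library was 1.04 times the lowest, and only 0.389% of all tested features had a smaller SD over the 6 libraries. The log2 fold change was -0.0097 with a 95% interval from -0.11 to 0.089 (limma adjusted p = 1.00). Nr1d1 (ENSMUSG00000020889.11, chromosome 11, 98767932 to 98775377) held 1476, 1201 and 1274 in KO 492, 499 and 501, and 1263, 1342 and 1309.6 in WT 490, 498 and 502. KO 492, the lowest library for Per1 and Per2, was the highest for Nr1d1, and the ratio of highest to lowest was 1.23. Its log2 fold change was 0.0084 with a 95% interval from -0.15 to 0.16 (limma adjusted p = 1.00). Nr1d1 shares 1075 bases with the gene Thra, which held 745 to 781 counts in KO and 732 to 833 in WT libraries, so part of either count may belong to the other.

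Dbp encodes a transcription factor that binds D-boxes and is a classic direct output of ARNTL and CLOCK. Dbp (ENSMUSG00000059824.12, chromosome 7, 45705100 to 45710203) held 2068, 1789 and 2115 normalised counts in KO 492, 499 and 501, and 2019, 2059.7 and 2076 in WT 490, 498 and 502. KO 499 lay below the other 5 libraries, which fell between 2019 and 2115. The ratio of highest to lowest was 1.18, and the log2 fold change was -0.047 with a 95% interval from -0.18 to 0.089 (limma adjusted p = 1.00). Without KO 499 it was 0.028. The annotated Dbp gene shares 741 bases with Sphk2, which held 270 to 305 counts in KO and 281 to 315 in WT libraries.

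**Figure D2:**
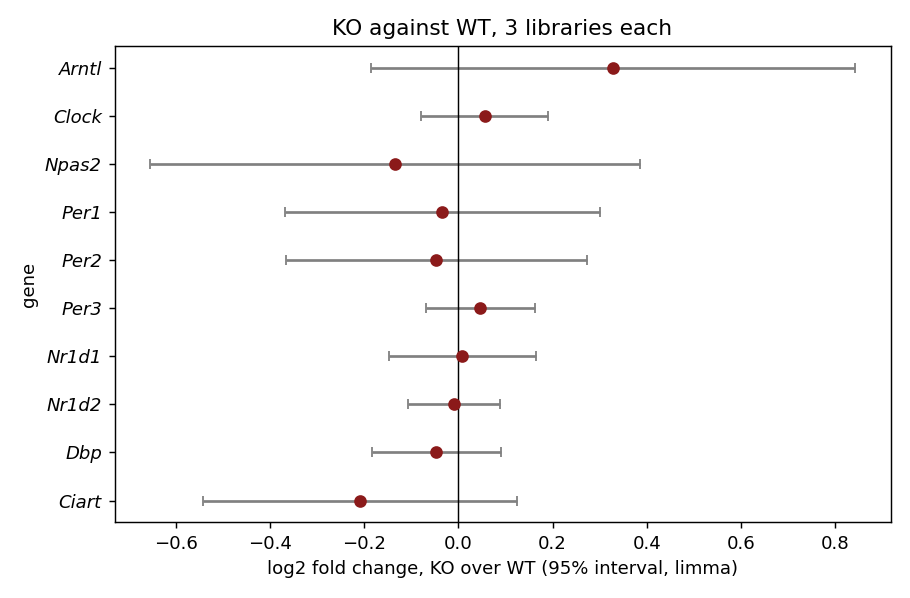
Log2 fold change of each clock gene, KO over WT, with its 95% interval from limma on 3 libraries per group. All 10 intervals include 0, and those of Arntl (-0.19 to 0.84) and Npas2 (-0.66 to 0.39), which rest on few reads, are the widest.

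The spread of the 10 genes over the libraries ranged widely, and is given beside the spread that counting error alone would produce. Over the 6 libraries the SD on the log2(value + 1) scale was 0.025 for Nr1d2 and 0.047 for Per3, where counting error alone gives 0.025 and 0.035. It was 0.077 for Clock, 0.088 for Dbp and 0.10 for Nr1d1, where counting error gives 0.039, 0.032 and 0.040. The SDs of Per1, Per2 and Ciart were 0.29, 0.27 and 0.29, against 0.048, 0.054 and 0.086 from counting error, beside a median SD of 0.15 over all tested features. Libraries of one group exceeded counting error over features in general, and whether this spread is biological or technical was not tested. Arntl and Npas2 had SDs of 0.29 and 0.31, close to those 3 genes, but counting error alone gives 0.24 and 0.22 at their read numbers. Between 76.9% and 80.6% of all tested features had a smaller SD than each of Per1, Per2, Ciart, Arntl and Npas2, while the corresponding shares were 4.73% for Per3, 18.5% for Clock, 23.6% for Dbp and 29.9% for Nr1d1. Counting error here is the Poisson error of the recovered reads and takes each read as an independent molecule.

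**Figure D3:**
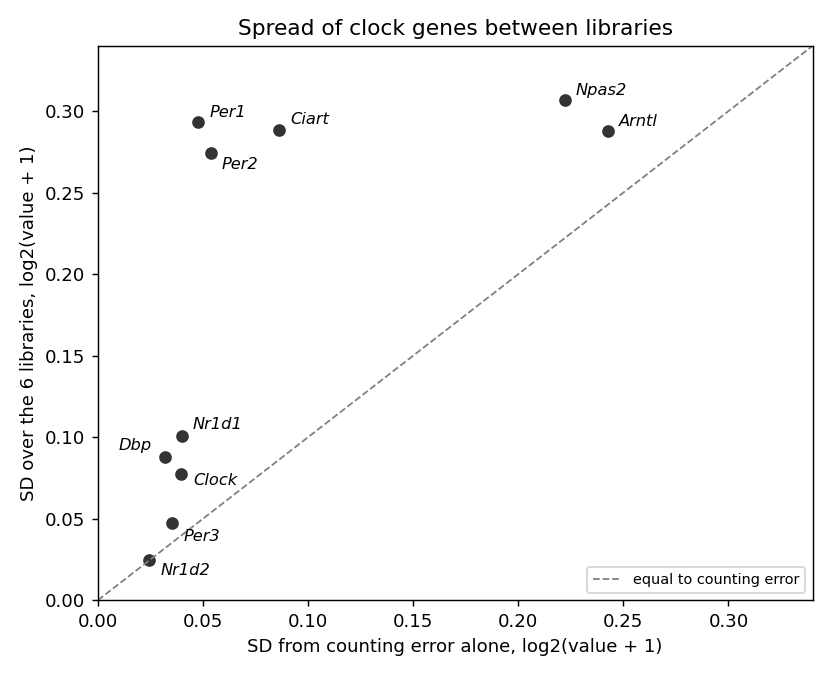
SD of each clock gene over the 6 libraries, on the log2(value + 1) scale, against the SD that counting error alone would give, with a dashed line where they are equal. Nr1d2 lies on the line at 0.025, Arntl and Npas2 lie a little above it, and Per1, Per2 and Ciart lie far above it.

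A per-library summary set the activators against the other genes. The mean log2 value of the activators Arntl, Clock and Npas2 minus that of the other 7 genes was -2.98, -3.02 and -3.45 in KO 492, 499 and 501, and -3.22, -3.33 and -3.28 in WT 490, 498 and 502. Since counts are not per length, only differences between libraries can be read from this summary. They spanned 0.46 from KO 501, the lowest, to KO 492, the highest, and both ends were KO libraries. That order depended on the summary: with medians in place of means, WT 498 was lowest at -5.02, KO 492 next at -4.97 and KO 499 highest at -4.58. With means over genes, the groups averaged -3.15 ± 0.26 in KO and -3.28 ± 0.057 in WT (SD, n = 3 each), a difference of 0.13. No test was made of this summary, because it is a score over genes that had been chosen with results of these data known. Its lowest value in KO 501 came with the lowest Npas2, from 24 reads, and the highest Per1, Per2, Per3, Dbp and Ciart. Arntl was also highest in that library, and Nr1d1 at 1274 lay within the range of the others. Nr1d2 was lowest there at 3409 counts, though close to 3413 in WT 502. Of the 3 activators, Arntl and Npas2 rest on few reads, and counting error alone gives them SDs of 0.24 and 0.22. How far counting error moves the summary was not tested.

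Arntl was set against each of the other 9 genes over the 6 libraries, on the log2(value + 1) scale, and no pair passed the threshold after adjustment over the 9. Arntl with Per3 had Pearson's r of 0.79 (exact permutation p = 0.0708, adjusted 0.544) and Spearman's rho of 0.54 (exact permutation p = 0.297, adjusted 0.892), and r was 0.61 without KO 501 and WT 502, the libraries farthest from the median of Arntl. Arntl with Per1 had r of 0.69 (exact permutation p = 0.126, adjusted 0.544) and rho of 0.66 (exact permutation p = 0.175, adjusted 0.788), and r was 0.31 without those libraries. Arntl with its fellow activator Npas2 had r of -0.66 (exact permutation p = 0.190, adjusted 0.544) and rho of -0.086 (exact permutation p = 0.919, adjusted 0.919). That sign rested on those libraries, since r was 0.81 without them. The other 6 pairs had r between -0.20 and 0.54, with exact permutation p-values adjusted over the 9 pairs from 0.544 to 0.796. Groups of 3 are too small for values within KO or within WT. With each group's mean removed, r was 0.94 with Per1, 0.77 with Per2 and 0.74 with Ciart, and from -0.67 to 0.69 with the others. For Per1 the permutation p adjusted over the 9 pairs was 0.200. It is only approximate, because values centred within groups are not freely exchangeable between groups.

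Other genes of the clock gave no call between KO and WT. The list of 30 further clock genes covers the Cry repressors, the ROR receptors that activate Arntl, the Bhlhe40 and Bhlhe41 repressors, Dbp's relatives Tef and Hlf, their antagonist Nfil3, and enzymes that modify or degrade clock proteins. limma called 0 of the 30, with 1 at an unadjusted p under 0.05, edgeR 0 with 1, and DESeq2 0 of the 21 it gave an adjusted p, with 0. The median log2 fold change was -0.0039, and the groups did not overlap in 3 of the 30, Rorb, Rora and Arntl2, near the 9.51% of all features. Rorb, which encodes a ROR receptor, averaged 74.5 ± 6.98 counts in KO and 94.2 ± 8.75 in WT (SD, n = 3 each), and its log2 fold change was -0.34 (limma unadjusted p = 0.0439, adjusted p = 1.00). Rora, the related receptor gene with far more counts, averaged 1465 ± 48.8 in KO and 1386 ± 15.7 in WT, a log2 fold change of 0.079 (limma adjusted p = 1.00). The other genes of smallest p were Bhlhe40, a repressor of ARNTL and CLOCK, at -0.14, and Prkaa1, a catalytic subunit of AMP-activated kinase, at 0.12. Over all features limma called 0.0219%, edgeR 0.0274% and DESeq2 0.529% of those with an adjusted p, so 0 calls do not set this list apart. At an unadjusted p under 0.05 the shares were 3.7%, 3.78% and 1.78%.

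Tef and Hlf, the D-box-binding relatives of Dbp, shared their 2 highest libraries. Tef held 4267, 4530.4 and 4962 normalised counts in KO 492, 499 and 501, and 4784, 4459 and 4381 in WT 490, 498 and 502. Hlf held 688, 685 and 884 in KO 492, 499 and 501, and 877, 698 and 765 in WT 490, 498 and 502. KO 501 and WT 490 were the 2 highest libraries for both genes. Dbp was also highest in KO 501, and its 2019 counts in WT 490 lay close to those of all libraries but KO 499. Cry2, which encodes a partner of the PER proteins, had the same 2 highest libraries, at 837 in KO 501 and 805 in WT 490, with 738 to 778 counts in the other 4. In all, 6 of the 30 further clock genes had this pair on top, and so did 3 of the 10 clock genes, Per1, Per2 and the activator Arntl, compared with 8.63% of all tested features.

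That pair of libraries recurred among genes known to respond to glucocorticoids, the adrenal hormones that also induce Per1 through its promoter. On a list of 13 such genes besides Per1, KO 501 and WT 490 were the 2 highest libraries for 11, against 8.63% of all tested features. The pair was chosen from Per1 after its values were seen, so these counts describe the libraries and test nothing. Fkbp5, a co-chaperone of the glucocorticoid receptor, held 301, 332 and 827 normalised counts in KO 492, 499 and 501, and 706, 353 and 292 in WT 490, 498 and 502. Zbtb16, a zinc finger factor, held 2351, 3169 and 5106 in KO 492, 499 and 501, and 5819, 3439 and 2138 in WT 490, 498 and 502. KO 501 and WT 490 thus stood well above the other 4 libraries in both genes, which were named after their values were seen. The list's exceptions were Cdkn1a, a cell cycle inhibitor, and Angptl4, an inhibitor of lipoprotein lipase. WT 490 is also the library that stood apart on the first principal component, and KO 501 lay at one end of the second. Whether these genes and the spread of Per1 and Per2 share a source was not tested.

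**Figure D4:**
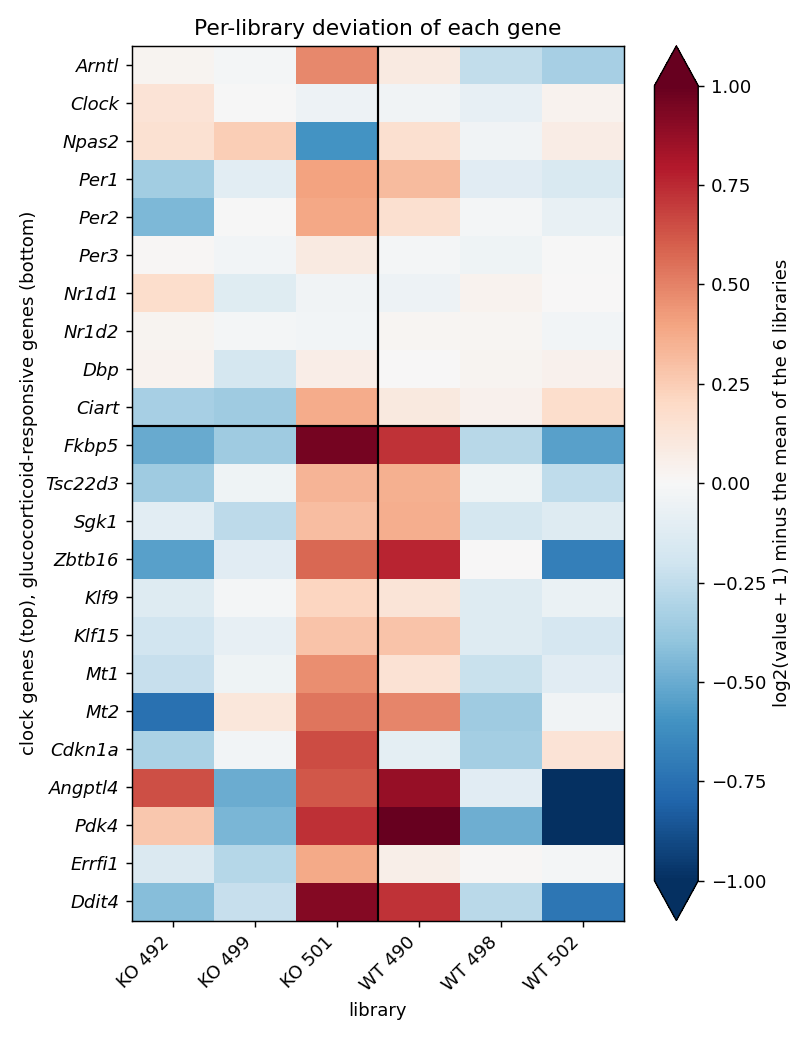
Deviation of each gene's log2(value + 1) from its mean over the 6 libraries, for the 10 clock genes (top) and the 13 glucocorticoid-responsive genes (bottom), KO libraries left and WT libraries right. Per1 and Per2 are high in KO 501 and WT 490, like most of the lower genes, while Nr1d2 and Per3 are nearly flat.

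Between KO and WT, limma and edgeR called 0 of the 13 glucocorticoid-responsive genes besides Per1 and DESeq2 0 of the 9 it gave an adjusted p, with 0 of 13 at an unadjusted p under 0.05 in each. Its genes of smallest p were Angptl4 at a log2 fold change of 0.52, Cdkn1a at 0.20, the pyruvate dehydrogenase kinase gene Pdk4 at 0.36 and the metallothionein gene Mt1 at 0.12. Without WT 490, 3 of the 13, Pdk4, Angptl4 and Ddit4, had an unadjusted limma p under 0.05, against 4.29% of all features in that fit, and 0 passed adjustment. Pdk4 then had a log2 fold change of 0.96 (limma unadjusted p = 0.000722, adjusted p = 0.388). WT 490 was the highest of the 6 libraries for Pdk4 at 5611 counts and Angptl4 at 133, and second highest for Ddit4 at 485. Leaving it out therefore lowers the WT mean of these 3 genes, while KO 501, at 4623 for Pdk4, stays in. These values are thus no test of the genotype. The median log2 fold change of the whole list of 14, Per1 included, was 0.024. With all 6 libraries, the called shares over all features were 0.0219% in limma, 0.0274% in edgeR and 0.529% in DESeq2. Unadjusted, they were 3.7%, 3.78% and 1.78%, so 0 of 13 does not set this list apart.

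A list of 24 genes described as clock outputs in heart or other tissues also had 0 calls by limma and edgeR, and 0 among the 18 genes DESeq2 gave an adjusted p, with 0 of 24 at an unadjusted p under 0.05 in each and a median log2 fold change of 0.011. Without WT 490, limma had 2 of the 24 at an unadjusted p under 0.05, near the 4.29% of all features in that fit, and 0 after adjustment. These were Pfkfb1 and Pdk4, and Pdk4 is the same gene as on the glucocorticoid list. WT 490 was among the 2 highest libraries for both, so leaving it out lowers their WT mean. The genes of smallest p were Bdh1, an enzyme of ketone body metabolism, at 0.23, Tspan4, a tetraspanin, at -0.20, Kcnip2, a subunit of the cardiac transient outward potassium channel, at 0.11, and Pnpla2, the triglyceride lipase ATGL, at 0.087. This list shares 5 genes with the glucocorticoid list and 2 with the further clock genes. KO 501 and WT 490 were the 2 highest libraries for 14 of its 24 genes, against 8.63% of all tested features. For the 10 temperature-sensitive genes, heat shock and cold-inducible genes whose RNA follows body temperature in peripheral tissues, that count was 0. At the share of 8.63% a list of this size can easily hold none. limma and edgeR called 0 of these 10 and DESeq2 0 of the 6 it gave an adjusted p, with 0 of 10 at an unadjusted p under 0.05 in each, and the median log2 fold change was -0.0022. The smallest p-values there were for the heat shock gene Hspa1a at -0.45, Hspa8 at -0.049, Dnajb1 at -0.065 and Hspa1b at 0.12. Beside the calls on both lists, the shares over all features were 0.0219% in limma, 0.0274% in edgeR and 0.529% in DESeq2. Unadjusted, they were 3.7%, 3.78% and 1.78%.

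The features most like Arntl and Dbp across the 6 libraries were found among 827 named genes with a mean of at least 50 counts and an SD of at least 0.25. By Pearson's r of log2(value + 1) the genes closest to Arntl were Sult1a1 (0.93), Scd4 (0.92), Tagln (0.92), Exosc8 (0.91), Spock2 (0.90) and Chac1 (0.89). Those closest to Dbp were Cxxc4 (0.99), Nup210 (0.96), Med11 (0.95), Utp23 (0.93), Mtrf1 (0.92) and Sema6c (0.92). All were lowest in KO 499, which follows from the choice, since Dbp stood apart in that library. These are descriptions over 6 libraries that share one scaling, and 4 of the 827 candidates had r above 0.9 with Arntl and 6 with Dbp. None of these 12 genes is on the lists of clock genes or clock outputs.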

How the data were processed

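Total RNA of whole hearts was depleted of ribosomal RNA and sequenced from random-hexamer cDNA, per the labels' protocols. The authors deposited signal per gene as normalised counts. Per the submitters' processing notes, the tools, named without their roles, included DESeq2 1.22.2, R 3.5.2, featureCounts, bedtools and Bowtie2 2.3.4.1. The builds named there are mm10 and GRCm38. A deposited DESeq2 table with log2 fold changes, a test score and p-value columns was used here only as an alternative. The count columns carry group and library number. Mitochondrial RNA-end libraries were not used here.

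Symbols were joined for 54686 of 54715 Ensembl identifiers, and gene positions are from RefSeq GRCm38.p6. Dividing by the worth of 1 read gave whole reads for 100% of 156689 nonzero values, within 0.01. Libraries of a group differed beyond counting noise (chi-square per degree of freedom 3.52 to 15.0). Log2(value + 1) of 18250 features with a mean of at least 10 was tested with limma 3.58.1, trended, 2-sided, genotype only, Benjamini-Hochberg at 0.05, in R 4.3.3, which was tested on simulated data. A fold change on this scale understates the change of low genes. Named genes are the 10 members, Rexo2, up to 4 genes of smallest p per list, and up to 6 most like Arntl and Dbp. The members, lists and rules were chosen with earlier results of these data known. Alternatives were pseudocounts, filters, scalings, limma without a trend or robust, edgeR 4.0.16, DESeq2 1.42.0, the deposited table and leaving out each library. Exact permutation tests were 2-sided (Python 3.11.15).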

Additional observations from a re-analysis of the deposited data

How the results depend on the processing

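In none of the 12 other fits, nor in the 6 that left out 1 library, was any of the 10 clock genes called. Arntl and Npas2 could not be fitted at a mean of at least 50, and the deposited table gives them no adjusted p. Under equal totals, which lowers all log2 fold changes by 0.070, Clock turned to -0.015, Per3 to -0.023 and Nr1d1 to -0.062, and Nr1d2 turned to 0.018 under equal totals of features not encoded by mtDNA. Leaving out 1 library gave -0.29 to 0.13 for Npas2, -0.24 to 0.13 for Per1, -0.25 to 0.16 for Per2, -0.076 to 0.072 for Nr1d1, -0.026 to 0.00076 for Nr1d2 and -0.093 to 0.028 for Dbp, and kept the sign of the other 4 genes. Without the 2 libraries farthest from the median of Arntl, its r turned to 0.53 with Clock, 0.81 with Npas2, -0.062 with Per2, -0.15 with Dbp and -0.25 with Ciart. The difference between KO and WT in activators minus other genes was 0.12 with medians or a pseudocount of 5, and 0.041 to 0.27 when 1 library was left out. No paired analysis was possible because the table's columns carry no replicate number, so the fit with a replicate block was not run. Depth limits Arntl and Npas2 most, with 24 to 52 reads per library.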
